A study of Homo sapiens with 10 samples.

Results

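Aminoacyl-tRNA synthetases join each amino acid to its transfer RNA (tRNA), and the genes of 36 of them were followed here in transfected human HEK293FT cells. The genes were chosen by name: 20 encode enzymes of the cytosol, and 16, with symbols ending in 2, encode enzymes of the mitochondrion. Of the 36 genes, 33 had a row of their own among the 19301 named features of the table, 19 cytosolic and 14 mitochondrial, and all 33 had a mean of at least 1 FPKM and were tested. The other 3 appeared only in rows that also carry another name (NARS with asnS, SARS2 with FBXO17, and VARS2 with GTF2H4). Whether asnS stands for a gene apart from NARS is not stated. The reads of such a row are not divided between its names, so these rows are given apart and as uncertain. VARS had 7 rows, of which 6 were at 0 in every library, and the remaining row was used.

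Polyadenylated RNA was measured in HEK293FT, an established line derived from human embryonic kidney cells, here with Gaussia and Cypridina luciferase reporters integrated by lentivirus. Each well of 125000 cells received 59 ng of plasmid for dCas9-VP64, a Cas9 that binds DNA without cutting it, fused to an activator of transcription, together with 2.25 uL of Lipofectamine and 679.4 ng of a carrier plasmid. In the groups INT, P4P6, TOP1 and sgRNA, 11.6 ng of a plasmid for 1 guide RNA directed at the Gaussia reporter was added, and the group CasVP had dCas9-VP64 and no guide. RNA was taken 3 days after transfection, and each of the 5 groups has 2 libraries. How the guides INT, P4P6 and TOP1 differ from the guide called sgRNA is not stated in the labels, and the guide TOP1 is unrelated to the gene of that name. All groups share the dCas9-VP64 plasmid and a single cell line. Whether both libraries of a group stem from separate cultures is not stated, so p-values measure only the spread between these samples, which may be technical. Libraries are named by the index 0 or 1 of their column.

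Both sets of synthetases are encoded in the nucleus, and the mitochondrial enzymes are imported to charge the tRNAs made from mitochondrial DNA. In most cases a separate gene encodes each form, but GARS and KARS each encode both, and EPRS joins the glutamate and proline enzymes of the cytosol in 1 protein. Several cytosolic enzymes are held in the multi-synthetase complex by the scaffold proteins AIMP1, AIMP2 and EEF1E1. Uncharged tRNA activates the kinase GCN2 (gene EIF2AK4), which phosphorylates eIF2alpha and favours translation of the transcription factor ATF4. ATF4 binds composite C/EBP-ATF response elements, and many cytosolic synthetase genes are among its known targets.

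Short matches to that element were present in the promoters of 7 cytosolic members. RefSeq promoters (GRCh38.p14, 250 bases before to 50 after each start) were found for 30 of the 36 genes, 16 cytosolic and 14 mitochondrial; AARS2, DARS, LARS, VARS, VARS2 and YARS had no entry. The core TGATGNAA, read on both strands, occurred in 7 of 16 cytosolic members (43.8%) and in 1 of 14 mitochondrial members (7.14%). Among the 9040 tested genes with an entry, 249 (2.75%) held it, as did 3.62% of all 35116 promoters of the same length. The 30-base windows below are written 5′ to 3′ on the strand of the gene, with the match in capitals, and show that 6 of the 7 cytosolic matches carry the same 8 letters in 1 orientation or the other.
AARS, chr16:70289675-70289704, minus strand: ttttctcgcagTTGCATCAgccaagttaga
CARS, chr11:3057407-3057436, minus strand: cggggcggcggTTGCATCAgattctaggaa
GARS, chr7:30594834-30594863, plus strand: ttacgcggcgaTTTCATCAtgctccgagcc
IARS, chr9:92293692-92293721, minus strand: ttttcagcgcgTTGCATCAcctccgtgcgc
MARS, chr12:57488053-57488082, plus strand: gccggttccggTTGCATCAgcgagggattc
NARS, chr18:57621804-57621833, minus strand: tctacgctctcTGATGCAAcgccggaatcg
TARS, chr5:33440956-33440985, plus strand: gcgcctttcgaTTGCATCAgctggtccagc
YARS2, chr12:32756076-32756105, minus strand: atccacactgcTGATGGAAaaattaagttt

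In AARS, CARS, IARS, MARS and TARS the match read TTGCATCA, and in NARS it read TGATGCAA, which is the same sequence on the opposite strand. That form, chosen after the matches of the members were seen, was present in 72 of the 9040 tested genes with an entry (0.796%). Because of that choice, the share is no test of the members. The first base of the match lay close to the start in 6 of the 7 cytosolic genes, at -33 in GARS, -13 in IARS, -4 in MARS, -2 in CARS, 3 in TARS and 15 in NARS. In AARS it lay at -187, and in the mitochondrial gene YARS2 at -197. A second motif, the CRE-like TGACGTNA, was found in none of the 16 cytosolic promoters, in 1 of the 14 mitochondrial promoters (NARS2) and in 6.12% of the tested genes. No 8-base stretch can match both motifs, which differ at a fixed base on either strand. These matches describe letters in a window and are not measured binding sites.

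Gaussia reporter RNA lay between 163 and 857 FPKM in the 8 libraries with a guide, against 23.8 and 22.7 FPKM in CasVP libraries. Of the 8 markers typical of HEK293 cells, 7 passed the filter and PAX2 lay between 0.755 and 1.28 FPKM, while markers of liver, blood, erythroid, fibroblast and squamous cells reached at most 0.430 FPKM, with KRT5 and COL1A2 listed at 0. Estimated relative depth lay between 0.694 and 1.02 of that of CasVP replicate 0. The first principal component of all tested features carried 34.0% of the variance. On it the P4P6 libraries had the highest values, 6.06 and 15.5, against -8.09 to 3.31 in the other 8 libraries. P4P6 replicate 0, at 6.06, lay closer to INT replicate 1, at 3.31, than to P4P6 replicate 1.

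Cytosolic synthetase genes were expressed several times higher than mitochondrial ones. FPKM, the fragments per kilobase of transcript scaled by library, is taken per length, so levels of genes can be set side by side. Whether the values were corrected for other effects, such as GC content, is not given in the sources used here. The median over members of the mean level in 10 libraries was 116 FPKM for the 19 cytosolic genes and 19.7 FPKM for the 14 mitochondrial genes. Within each library the ratio of the 2 class medians lay between 5.46 and 6.38. Of the 19 cytosolic genes, 17 exceeded every mitochondrial gene but IARS2 in all 10 libraries.

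**Figure D1:**
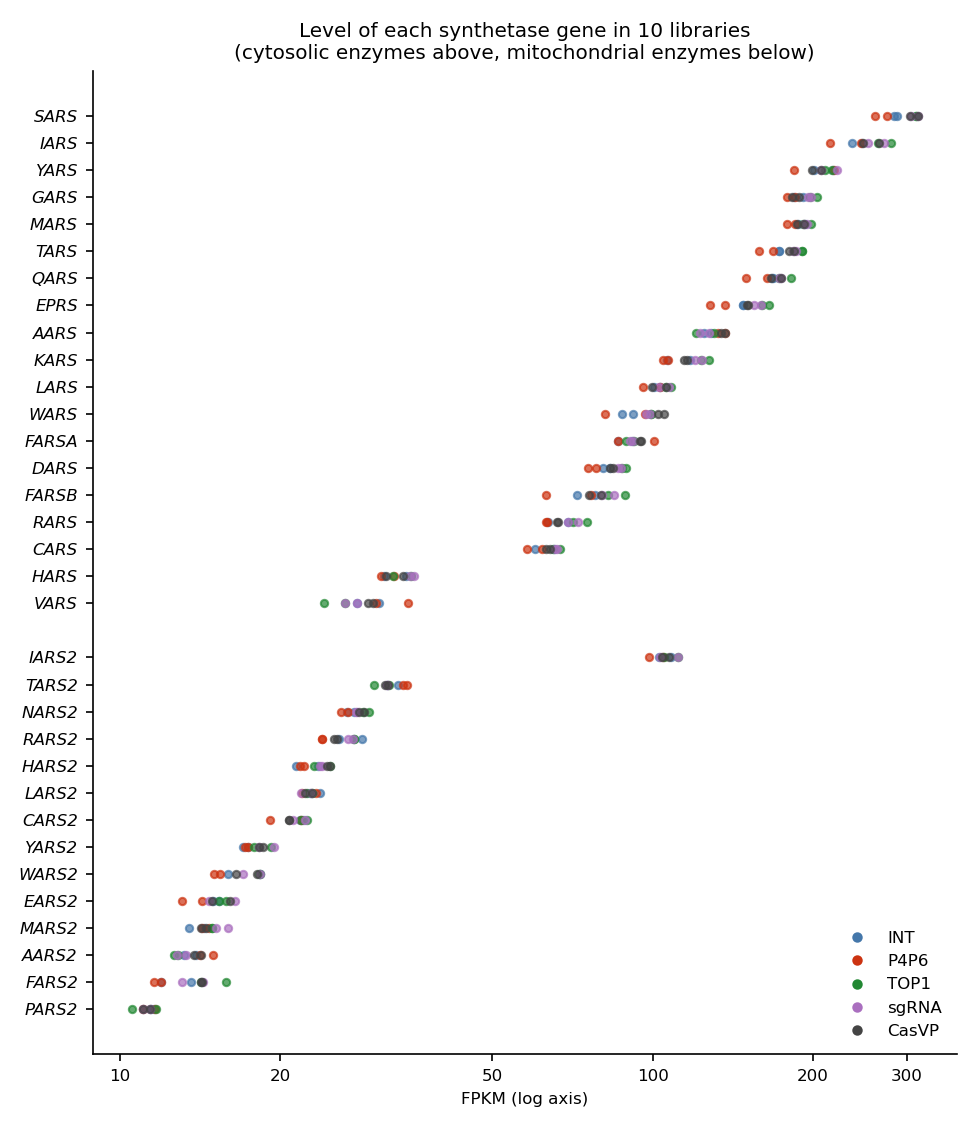
Level of each of the 33 synthetase genes in FPKM (log axis), with 1 point per library coloured by group and cytosolic genes above mitochondrial genes. SARS lies highest with a mean of 297 FPKM and PARS2 lowest with 11.3 FPKM, and IARS2, at 106 FPKM, lies among the cytosolic genes.

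SARS, the serine enzyme, was the most abundant, with 261 to 315 FPKM over the 10 libraries and a median of 305 FPKM. IARS, for isoleucine, followed with 215 to 280 FPKM, and YARS, for tyrosine, with 184 to 222 FPKM, a range that overlaps that of the next gene, GARS (178 to 204 FPKM). SARS ranked first and IARS next among cytosolic genes in all 10 libraries. At the other end, VARS, for valine, had 24.2 to 34.8 FPKM, HARS, for histidine, 31.0 to 35.6 FPKM, and CARS, for cysteine, 58.1 to 66.9 FPKM. VARS was the lowest cytosolic gene in 9 libraries and HARS in 1, and their ranges overlap.

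Among mitochondrial enzymes IARS2, for isoleucine, stood apart with 98.6 to 112 FPKM and was the highest in all 10 libraries. TARS2, for threonine, came next with 29.95 to 34.6 FPKM and NARS2, for asparagine, with 26.0 to 29.3 FPKM, and these ranges do not overlap each other. The lowest were PARS2, for proline, with 10.5 to 11.7 FPKM, FARS2, for phenylalanine, with 11.6 to 15.8 FPKM, and AARS2, for alanine, with 12.6 to 14.97 FPKM. PARS2 was the lowest in all 10 libraries, whereas the ranges of FARS2 and AARS2 overlap. IARS2 was lower than 10 cytosolic genes in every library and higher than 7 in every library.

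For the same amino acid, the cytosolic gene was higher than its mitochondrial partner in every library in all 14 pairs with rows of their own. Some pairs share a gene: EPRS was set against both EARS2 and PARS2, and FARS2 against both FARSA and FARSB. The median ratio over libraries was smallest for histidine, where HARS was 1.44 times as high as HARS2. Isoleucine followed at 2.37 and arginine at 2.61. HARS and HARS2 are neighbours on the genome and their RefSeq promoter windows overlap by 184 bases. The largest ratios were 12.9 for methionine (MARS over MARS2) and 13.4 for proline (EPRS over PARS2). In the uncertain shared rows, VARS stood at 0.596 of the row that VARS2 shares with GTF2H4, the row that NARS shares was 3.60 times NARS2, and SARS was 7.43 times the row that SARS2 shares.

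The spread between libraries was of the same order for the members as for other features. The median standard deviation of log2(FPKM + 1) over the 10 libraries was 0.074 for the 33 members, against 0.088 for all 11574 tested features and 0.081 for the 7165 with a mean of at least 10 FPKM. It was 0.082 for cytosolic and 0.064 for mitochondrial genes. VARS at 0.14, FARSB, the beta subunit of the phenylalanine enzyme, at 0.13 and IARS at 0.11 varied most among cytosolic genes, and FARS2 at 0.14, WARS2, for tryptophan, at 0.11 and EARS2, for glutamate, at 0.090 among mitochondrial ones. MARS at 0.042, LARS, for leucine, at 0.053 and GARS, for glycine, at 0.061 varied least in the cytosolic set, as did LARS2 at 0.035, PARS2 at 0.043 and NARS2 at 0.051 in the mitochondrial set.

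**Figure D2:**
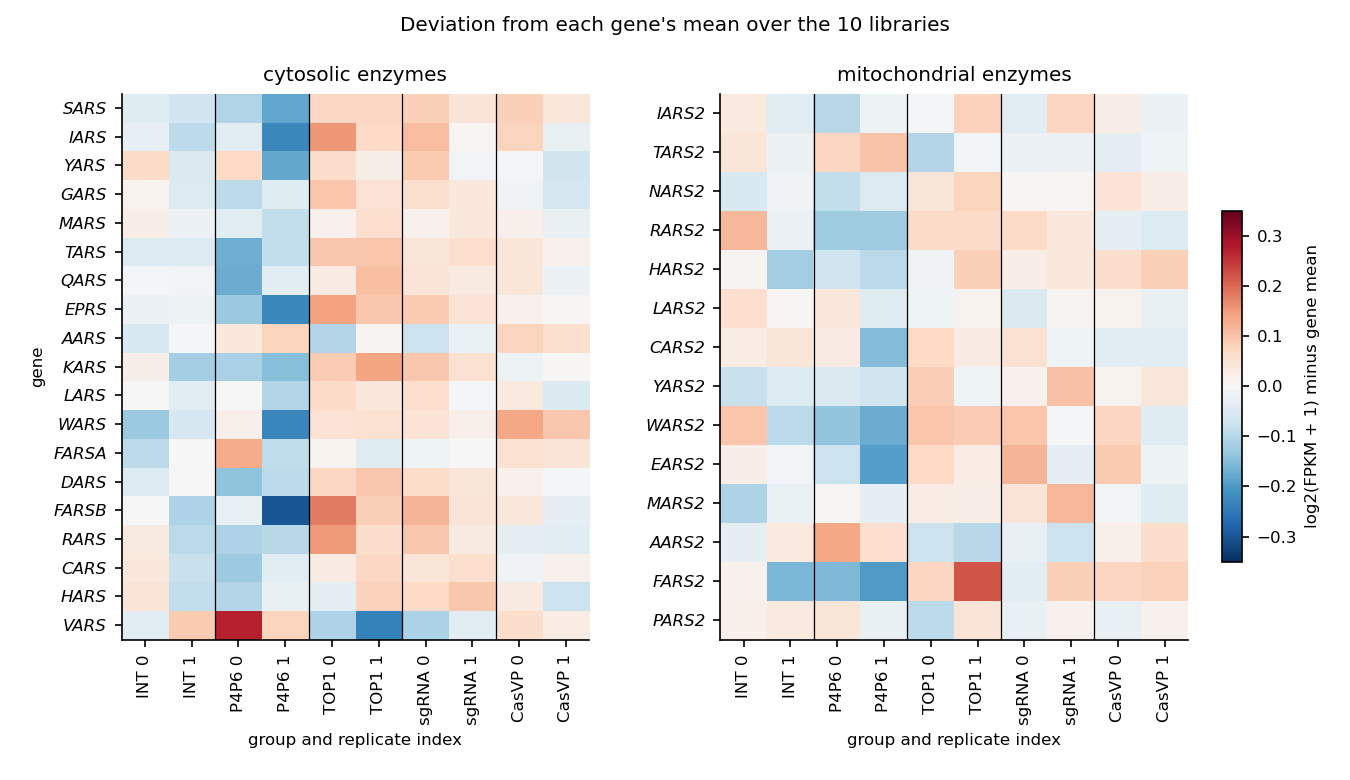
Deviation of log2(FPKM + 1) from each gene's mean over the 10 libraries, by group and replicate index, for cytosolic genes (left) and mitochondrial genes (right) in order of level; red is above and blue below the mean. P4P6 libraries are mostly blue, with VARS and AARS2 among the exceptions, and TOP1 and sgRNA libraries are mostly red in the cytosolic panel with the deposited scaling (with quantile normalization the cytosolic median was -0.0039 for TOP1 minus CasVP and -0.01 for sgRNA minus CasVP).

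With the P4P6 guide, 5 cytosolic synthetase genes fell relative to the guide sgRNA, and no member of either class rose in the same fit. The 5 were EPRS, SARS, KARS, TARS and DARS, each at 84.2 to 88.8% of its level with sgRNA. None of the 14 mitochondrial genes passed in this fit, and RARS2, for arginine, passed as lower when features needed a mean of at least 5 FPKM and without either INT library. The background was high: at an adjusted p under 0.05 limma called 11.5% of all 11574 features in this comparison, 7.17% as lower and 4.33% as higher. Whether 5 of 33 departs from that background was not tested. Bulk values do not tell fewer cells of a kind from less RNA per cell.

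EPRS, the joint glutamate and proline enzyme of the multi-synthetase complex, had 137 and 128 FPKM in P4P6 libraries, against 160 and 155 FPKM in sgRNA libraries. SARS had 276 and 261 FPKM in P4P6 libraries, against 315 and 306 FPKM in sgRNA libraries. Both P4P6 libraries lay below both sgRNA libraries for each gene. The log2 difference was -0.25 for EPRS (95% CI -0.35 to -0.15, limma adjusted p = 0.0231) and -0.21 for SARS (95% CI -0.31 to -0.11, limma adjusted p = 0.0251).

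KARS, the lysine enzyme of the complex and of mitochondria, had 107 and 105 FPKM in P4P6 libraries, against 124 and 120 FPKM in sgRNA libraries. TARS, for threonine, had 158 and 168 FPKM in P4P6 libraries, against 184 and 186 FPKM in sgRNA libraries. DARS, the aspartate enzyme of the complex, had 75.6 and 78.2 FPKM in P4P6 libraries, against 87.2 and 86.0 FPKM in sgRNA libraries. Here too the groups did not overlap. The log2 differences were -0.21 for KARS, -0.18 for TARS and -0.17 for DARS, with limma adjusted p of 0.0360, 0.0314 and 0.0339. The uncertain row that NARS shares with asnS also passed, at -0.16 with a limma adjusted p of 0.0371.

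**Figure D3:**
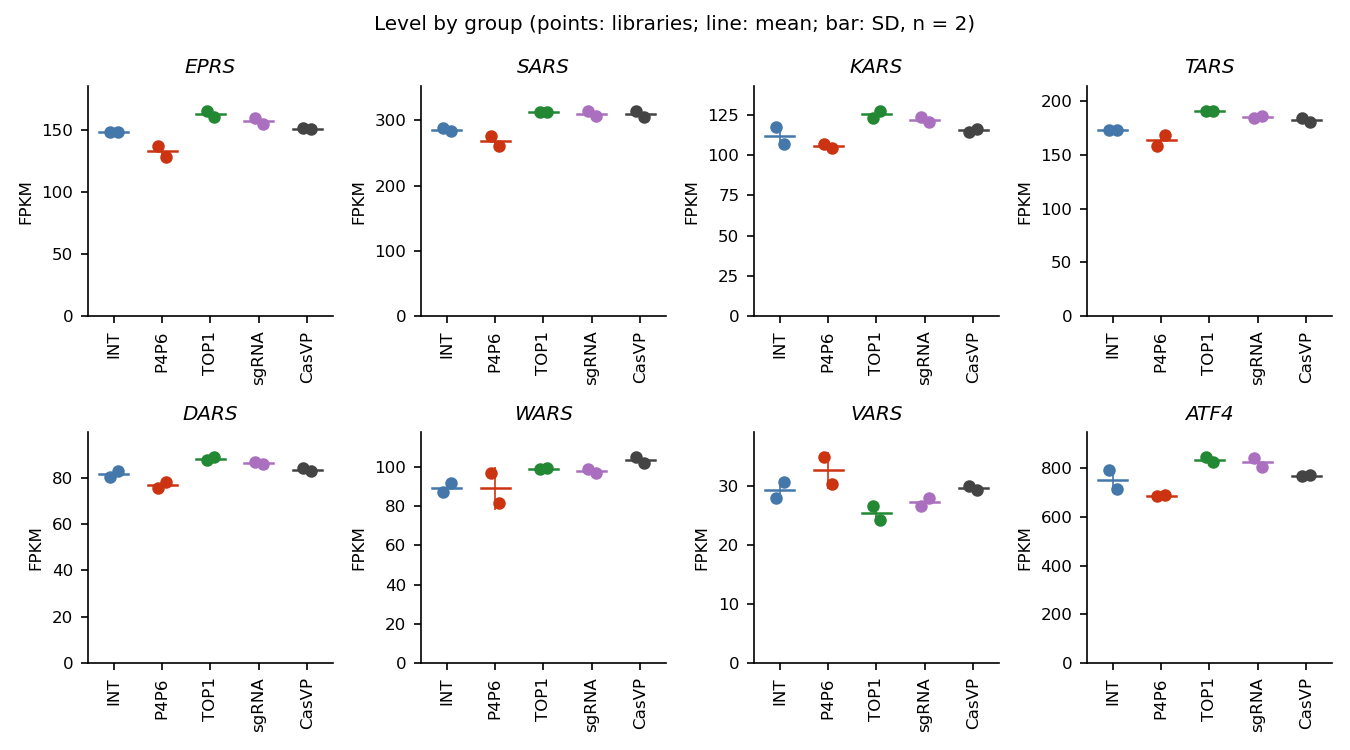
FPKM of 7 synthetase genes and ATF4 by group (points are libraries, horizontal lines means, vertical bars SD, n = 2). EPRS, SARS, KARS, TARS, DARS and ATF4 are lowest on average in P4P6 libraries, WARS is highest in CasVP libraries, and VARS is highest on average in P4P6 libraries.

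Across the whole set, 16 of 19 cytosolic genes had a P4P6 minus sgRNA estimate below 0, with a median of -0.15 on the log2 scale, and 10 of 14 mitochondrial genes, with a median of -0.09. The median over all tested features was -0.01, and 52.4% of them lay below 0. With quantile normalization 12 of 19 cytosolic genes lay below 0 and their median was -0.04, while the mitochondrial median was -0.09. Both P4P6 libraries lay below both sgRNA libraries in 22 of the 33 genes, against 30.6% of all tested features. The difference between the classes was not tested.

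The 8 genes of the multi-synthetase complex (DARS, EPRS, IARS, KARS, LARS, MARS, QARS and RARS) all had estimates below 0, with a median of -0.17, and 3 of them passed. Of all features, 52.4% lay below 0 and 7.17% were called lower. With quantile normalization 6 of the 8 lay below 0 and the median was -0.04. The scaffold AIMP1 had 28.8 and 27.4 FPKM in P4P6 libraries, against 34.4 and 31.9 FPKM in sgRNA libraries, a log2 difference of -0.23 (limma adjusted p = 0.0318). EEF1E1 had 68.9 and 68.5 FPKM in P4P6 libraries, against 85.2 and 81.7 FPKM in sgRNA libraries, a log2 difference of -0.28 (limma adjusted p = 0.0231). The third scaffold, AIMP2, did not pass, at -0.21 with a limma adjusted p of 0.263. In a fit with the libraries of the compared groups alone, 2 of all 11574 features passed in this comparison. Whether the complex or scaffold genes depart from the background was not tested.

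The highest estimates belonged to VARS and AARS2, and neither passed. VARS had 34.8 and 30.3 FPKM in P4P6 libraries, against 26.5 and 27.9 FPKM in sgRNA libraries. Both P4P6 libraries were the higher ones, and the log2 difference was 0.25 (95% CI 0.08 to 0.42, limma adjusted p = 0.0566). AARS2 had 14.97 and 14.2 FPKM in P4P6 libraries, against 13.3 and 12.8 FPKM in sgRNA libraries, with a log2 difference of 0.15 (limma adjusted p = 0.108). AARS and TARS2 each had an estimate of 0.11, with no overlap between the groups.

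FARSA and FARSB encode the alpha and beta subunits of 1 cytosolic enzyme and had unlike estimates. FARSB had 76.6 and 63.2 FPKM in P4P6 libraries, against 84.7 and 80.5 FPKM in sgRNA libraries. Its log2 difference was -0.24 (95% CI -0.43 to -0.06, limma adjusted p = 0.0790), and that of FARSA was 0.03 (95% CI -0.12 to 0.17). The ratio of FARSB to FARSA was 0.763 and 0.733 in P4P6 libraries, 0.958 and 0.929 in TOP1 libraries, 0.906 and 0.789 in INT libraries, 0.933 and 0.877 in sgRNA libraries and 0.842 and 0.804 in CasVP libraries. The P4P6 libraries had the lowest ratios of all 10, and the difference in ratio was not tested. GC content of the transcript was 60.3% for FARSA and 41.6% for FARSB, and its part in the unlike estimates was not tested. With the trend on GC content and length removed FARSA was at -0.0050, and without P4P6 replicate 0 at -0.082.

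Among mitochondrial genes the lowest estimate was that of WARS2, the mitochondrial tryptophan enzyme. WARS2 had 15.4 and 15.02 FPKM in P4P6 libraries, against 18.3 and 17.0 FPKM in sgRNA libraries. The groups did not overlap, and the log2 difference of -0.20 (95% CI -0.36 to -0.04) did not pass, with a limma adjusted p of 0.0925. The smallest adjusted p among the 14 mitochondrial genes was 0.0578. At an unadjusted p under 0.05, 4 of the 14 were lower and 2 higher, and 12 of the 19 cytosolic genes were lower and 1 higher, against 17.6% of all features lower and 12.7% higher.

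**Figure D4:**
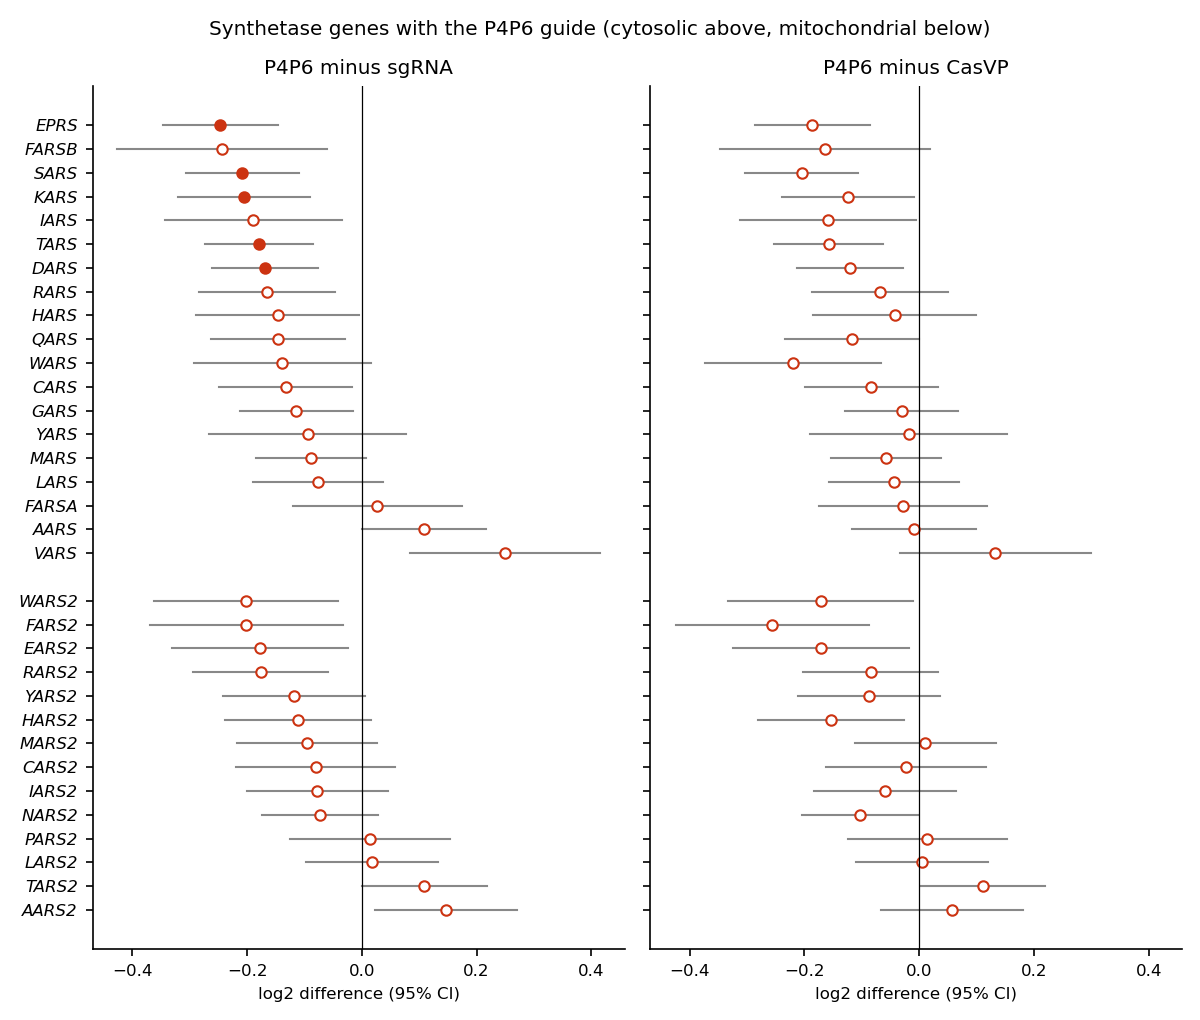
Log2 difference with 95% CI of each of the 33 genes, P4P6 minus sgRNA (left) and P4P6 minus CasVP (right), with cytosolic genes above mitochondrial genes; filled points had an adjusted p under 0.05 in limma. The filled points are EPRS, SARS, KARS, TARS and DARS on the left, and no point is filled on the right.

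The 5 calls depended on which libraries entered the fit. None of the 5 passed without P4P6 replicate 1, without sgRNA replicate 0, without sgRNA replicate 1 or with the libraries of the compared groups alone, settings in which 1 or 2 of all 11574 features passed, and only EPRS passed without either CasVP library; without P4P6 replicate 0, 7 members passed, against 17.7% of all features. With quantile normalization none of the 5 passed and AARS was called higher, at 0.24 on the log2 scale, against 3.35% of all features called. Without the intensity trend EPRS and SARS passed, against 5.77% of all features. With a minimum of 5 FPKM, 7 members passed, the 5 with RARS2 lower and VARS higher, against 16% of all features.

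Estimates in this comparison moved with the GC content of the transcript. Over the 33 members Pearson's r between GC content and the log2 difference was 0.65, a description across genes of the same libraries. Over the 9913 tested features with a matched transcript r was 0.39. VARS had the highest GC content of the members at 62.6%, with AARS2 at 59.3%, and DARS the lowest at 41.2%. The medians of the classes were close, 48.6% for cytosolic and 50.4% for mitochondrial genes. With the trend on GC content and length removed from every library, no member passed and no feature of the 9913 passed, and the cytosolic median was -0.12. Expression level moved with the estimate too: r with the log2 mean FPKM was -0.28 over the members and -0.37 over all 11574 features. RNA for dCas9-VP64 was 17.1 and 20.1 FPKM in P4P6 libraries, against 24.0 and 23.4 FPKM in sgRNA libraries. The part of GC content, level, depth and dCas9-VP64 in the result was not tested.

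**Figure D5:**
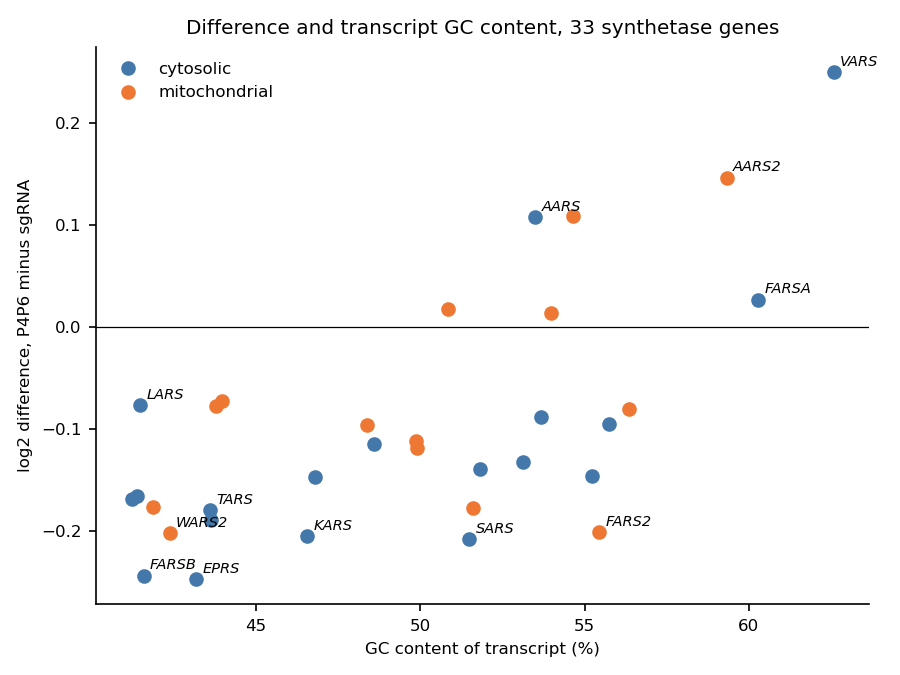
Log2 difference, P4P6 minus sgRNA, against the GC content of the transcript in percent for the 33 synthetase genes, coloured by class. VARS, at 62.6% GC, has the highest estimate at 0.25, and EPRS has the lowest at -0.25.

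ATF4 mRNA and 3 of its listed targets were also called lower with P4P6 relative to sgRNA. ATF4 had 688 and 689 FPKM in P4P6 libraries, against 843 and 807 FPKM in sgRNA libraries, and both P4P6 libraries were the lower ones. Its log2 difference was -0.26 (95% CI -0.38 to -0.14, limma adjusted p = 0.0251). Of the 33 tested genes on the list of ATF4 and its targets, which excludes the synthetases, 4 passed and all 4 were lower, against 7.17% of all features called lower. The other 3 were ASNS, asparagine synthetase, at -0.29, MTHFD2, of mitochondrial folate metabolism, at -0.25, and PSAT1, of serine synthesis, at -0.20, with limma adjusted p of 0.0456, 0.0402 and 0.0326. The median of the list was -0.03, against -0.01 over all features. Of all features 11.5% were called in this comparison, and whether 4 of 33 departs from that background was not tested. No gene of the list passed without P4P6 replicate 1 or without any 1 of the sgRNA and CasVP libraries, with quantile normalization or with no filter on low values, and 14 passed without P4P6 replicate 0, where 17.7% of all features did. DDIT3, the stress factor CHOP, was at -0.03, and INHBE, an inhibin subunit induced under stress, at 0.30 (limma adjusted p = 0.141). In the eIF2alpha list of 6 genes, EIF2S1, which encodes eIF2alpha, fell by 0.20 on the log2 scale (limma adjusted p = 0.0321). GCN1L1, a partner of GCN2, rose by 0.19 (limma adjusted p = 0.0346). EIF2AK4 itself was at -0.13 (limma adjusted p = 0.198). With the libraries of the compared groups alone, 2 of all 11574 features passed in this comparison. Whether the calls in the eIF2alpha list depart from the background was not tested. None of the 7 tested mitochondrial tRNA charging partners and none of the 3 tested genes of cytosolic tRNA delivery passed in this comparison.

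Against CasVP, no synthetase gene passed with any guide. The guide comparisons share the CasVP libraries, so their values are not independent of each other. With P4P6, limma called 0.00864% of all features, 0 of 33 members at an adjusted p under 0.05, and the smallest adjusted p of a member was 0.0750, for SARS. At an unadjusted p under 0.05, 13 members were lower and 1 higher (TARS2), against 12.9% of all features lower and 9.32% higher, together 22.2%. Both P4P6 libraries lay below both CasVP libraries in 18 of the 33 members, against 28.1% of all features. SARS had 276 and 261 FPKM in P4P6 libraries, against 314 and 305 FPKM in CasVP libraries, a log2 difference of -0.21. FARS2 had 12.0 and 11.6 FPKM in P4P6 libraries, against 14.2 and 14.3 FPKM in CasVP libraries, a log2 difference of -0.26 (95% CI -0.42 to -0.09, limma adjusted p = 0.107). The groups did not overlap for either gene. Of the 19 cytosolic genes, 18 had estimates below 0 (median -0.08, and 12 of 19 below 0 with quantile normalization), and of the 14 mitochondrial genes, 9 (median -0.07), against a median of -0.01 over all features, of which 53.9% lay below 0. Without P4P6 replicate 0, 4 members passed (EPRS, FARSB, SARS and WARS), with 764 of all features (6.6%).

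With TOP1, limma called 0.00864% of all features and 0 of 33 members. At an unadjusted p under 0.05, RARS, GARS, EPRS and KARS were higher and VARS, AARS2 and AARS lower, 7 of 33 members against 9.22% of all features (4.29% higher and 4.92% lower). Both TOP1 libraries lay above both CasVP libraries in 14 members and below them in 5, against 24.7% and 23.5% of all features. RARS, the arginine enzyme of the complex, had 75.5 and 70.9 FPKM in TOP1 libraries, against 66.4 and 66.2 FPKM in CasVP libraries. Both TOP1 libraries were the higher ones, at a log2 difference of 0.14 (95% CI 0.02 to 0.26, limma adjusted p = 0.529). VARS had 26.5 and 24.2 FPKM in TOP1 libraries, against 29.9 and 29.2 FPKM in CasVP libraries, at -0.21 (95% CI -0.38 to -0.05, limma adjusted p = 0.501). All 8 genes of the complex had estimates above 0, with a median of 0.08, and 5 of 8 with quantile normalization, where the median was 0.03. The cytosolic median was 0.06, or -0.0039 with quantile normalization, and the mitochondrial median 0.02; 8 members and 49.1% of all features had an estimate below 0. Pearson's r between GC content and the TOP1 minus CasVP estimate was -0.68 over the 33 members and -0.28 over the 9913 features with a matched transcript.

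With INT, limma called 0.0173% of all features and 0 of 33 members, and at an unadjusted p under 0.05 the members WARS, SARS and HARS2 were lower, against 8.86% of all features, 5.05% lower and 3.81% higher. Both INT libraries lay below both CasVP libraries in 11 members and above them in 3, against 23.1% and 20.3% of all features. WARS, for tryptophan, had 87.4 and 91.8 FPKM in INT libraries, against 105 and 102 FPKM in CasVP libraries, without overlap. Its log2 difference was -0.21 (95% CI -0.36 to -0.05, limma adjusted p = 0.507). The medians were -0.03 for cytosolic and -0.02 for mitochondrial genes, against -0.0011 over all features. With quantile normalization they were -0.0080 for cytosolic and -0.021 for mitochondrial genes.

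With the guide sgRNA, limma called 0.0173% of all features and 0 of 33 members, and AARS alone had an unadjusted p under 0.05, against 6.02% of all features, 2.79% lower and 3.23% higher. AARS had 123 and 127 FPKM in sgRNA libraries, against 137 and 135 FPKM in CasVP libraries, at a log2 difference of -0.12 (95% CI -0.23 to -0.01, limma adjusted p = 0.791). The cytosolic median was 0.03, or -0.01 with quantile normalization, and the mitochondrial median 0.0045, and 10 members and 49.5% of all features had an estimate below 0. Every 95% CI of a member lay between -0.28 and 0.26. These intervals were taken gene by gene, with 2 libraries a group and the deposited scaling, so they do not exclude larger differences.

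Taking all guides together against CasVP, limma called 0.0173% of all features and 0 of 33 members, with 1 member, WARS, at an unadjusted p under 0.05, against 7.43% of all features. WARS was the 1 member whose 8 guide libraries all lay on one side of the CasVP libraries, against 2.68% of all features in that direction. It had 81.6 to 99.4 FPKM in libraries with a guide, against 105 and 102 FPKM in CasVP libraries, at a log2 difference of -0.14 (limma adjusted p = 0.669). On the ATF4 list none passed in any guide comparison with CasVP. Its lowest estimates were those of INHBE, which averaged 7.65 FPKM with guides and 11.3 FPKM in CasVP libraries, and of TRIB3, a pseudokinase induced by ATF4, which averaged 43.9 FPKM with guides and 53.5 FPKM in CasVP libraries. The highest was 0.33, for GDF15, a secreted stress-induced factor (limma adjusted p = 0.747). DDIT3 averaged 69.9 FPKM with guides and 79.2 FPKM in CasVP libraries (limma adjusted p = 0.669).

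Between the guides, INT against sgRNA gave 0 of 33 members called, with 0.00864% of all features called. At an unadjusted p under 0.05, 4 members (KARS, MARS2, SARS and TARS) were lower, against 8.77% of all features, 5.66% lower and 3.11% higher. Both INT libraries lay below both sgRNA libraries in 17 members, against 23.3% of all features, and 26 members had estimates below 0, against 51.0%. MARS2, for methionine, had 13.5 and 14.4 FPKM in INT libraries, against 15.1 and 16.0 FPKM in sgRNA libraries, at a log2 difference of -0.15 (limma adjusted p = 0.555). The cytosolic median was -0.08, or -0.01 with quantile normalization. TOP1 against sgRNA also gave 0 members called, with 0.00864% of all features called, and no member had an unadjusted p under 0.05, against 1.68% of all features. Its medians were 0.03 for cytosolic and 0.01 for mitochondrial genes.

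Cytosolic genes with and without the ATF4-type motif had medians on the same side of 0. With P4P6 minus sgRNA, the 6 genes with a row of their own and TGATGNAA in the promoter had a median of -0.12, and 1 of them, TARS, passed. The 9 with an entry and without the motif had a median of -0.17, and 3 of them passed (EPRS, KARS and SARS). Split instead by whether they are listed as ATF4 targets, the 10 listed cytosolic genes had a median of -0.14 with 3 called, and the 9 others -0.15 with 2 called. Of all features 11.5% were called in this comparison, 7.17% as lower, and their median was -0.01. None of these calls remained with quantile normalization or with the trend on GC content and length removed. No test of these splits was made, and both sets of each share the same libraries.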

How the data were processed

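Polyadenylated RNA was sequenced from 10 libraries in 5 groups. The deposited values are FPKM; the tools named in the submitters' processing notes are Cuffdiff 2.2.1 and TopHat2 2.0.13, and the build hg19, while the step of each tool, the annotation and the scaling are not given in the sources used here. The 945 unnamed features were left out. The column index 0 or 1 was not matched to the replicate numbers of the labels. Members and lists were chosen with earlier results of these data known.

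Features with a mean of at least 1 FPKM (11574) were tested with limma 3.58.1 (R 4.3.3) on log2(FPKM + 1), with an intensity trend, 1 mean per group and all 10 libraries in 1 fit. Tests are two-sided, with Benjamini-Hochberg adjustment over all 11574 features and a threshold of 0.05. The pseudocount of 1 understates changes of low genes. The method was tested on simulated data with independent noise for each feature. Recovery of differences as small as those of the members called is not given here. The simulation held no trend of the differences with GC content or level, so it does not cover such trends in these data. Whole reads could not be recovered from FPKM: the estimate of relative depth used features averaging at most 0.05 FPKM, where 74.7% of 9376 ratios of depth-scaled values to the lowest value of the feature came within 0.05 of a whole number. No counting intervals are given. Alternatives changed the pseudocount, filter, scaling, trend, libraries and replicate block. GC content and length come from GENCODE v29 transcripts.

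The text names members that passed, otherwise up to 6 each way with the largest difference (first those whose groups do not overlap), those at the ends of the order of levels and of spread, and members counted at an unadjusted p under 0.05; the last were chosen after their values were seen.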

Additional observations from a re-analysis of the deposited data

Results flagged for a closer look

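For 5 members the difference from CasVP with P4P6 and the difference from CasVP with sgRNA were unlike by a test of the difference itself, which drew attention to them. Since both share the CasVP libraries, this equals P4P6 minus sgRNA, and the log2 values were -0.2469 for EPRS, -0.2083 for SARS, -0.2053 for KARS, -0.1793 for TARS and -0.1688 for DARS. EPRS stood at -0.19 against CasVP with P4P6, and KARS at -0.12, neither of which passed.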

How the results depend on the processing

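Of the 33 members, fewer than the 5 called in P4P6 minus sgRNA passed in several fits. With libraries of the compared groups alone 0 passed (0.0173% of all features). With quantile normalization 1 passed (3.35%), which was AARS, higher and not among the 5, and with no intensity trend 2 (5.77%). More passed with a minimum of 5 FPKM, where 7 did (16% of all features), and without either INT library, where 6 did (10.5% and 10.4%), RARS2 being added in each. Of the ATF4 list, where 4 had passed, 0 passed with the compared groups alone, quantile normalization or no filter, and 1 with no trend. Leaving out 1 library at a time gave 0 to 7 members and 0 to 14 list genes in P4P6 minus sgRNA (17.7% of all features in the fit with most calls), and 0 to 4 members and 0 to 8 list genes in P4P6 minus CasVP. With a replicate block on the column index, 12 members passed in P4P6 minus sgRNA, against 20.1% of all features, with VARS higher (adjusted p = 0.0433 in limma) and 11 lower, among them the mitochondrial EARS2, RARS2 and WARS2. In P4P6 minus CasVP 3 members and 2 list genes passed, against 5.18% of all features. Nothing in the labels ties libraries of the same index to each other. Their deviations correlated at r over 0.1 in 8 of 10 pairs of groups, among them P4P6 and sgRNA (r = 0.415), and not in the other 2. With quantile normalization the cytosolic medians were -0.0415 for P4P6 minus sgRNA, -0.0201 for P4P6 minus CasVP, -0.0125 for sgRNA minus CasVP, -0.0039 for TOP1 minus CasVP and -0.0084 for INT minus sgRNA, and the mitochondrial median was -0.0442 for P4P6 minus CasVP. The mitochondrial median of P4P6 minus sgRNA was -0.0927 with a pseudocount of 0.1 and -0.0816 with median-of-ratios rescaling. Without 1 library at a time, cytosolic medians ranged from 0.0088 to 0.0595 for sgRNA minus CasVP, from -0.059 to -0.0164 for INT minus CasVP, from 0.0317 to 0.0884 for TOP1 minus CasVP, from -0.0925 to -0.0448 for INT minus sgRNA, from 0.0107 to 0.036 for TOP1 minus sgRNA and from -0.0323 to 0.0043 for all guides minus CasVP. Mitochondrial medians ranged from -0.0173 to 0.0122 for sgRNA minus CasVP, from -0.0405 to 0.0154 for INT minus CasVP, from 0.0023 to 0.0468 for TOP1 minus CasVP, from -0.0549 to 0.0113 for INT minus sgRNA, from -0.119 to -0.073 for P4P6 minus sgRNA, from -0.0059 to 0.0238 for TOP1 minus sgRNA and from -0.0223 to 0.0133 for all guides minus CasVP. Members that turned direction in such fits ranged from -0.016 to 0.101 (YARS, INT minus CasVP, negative without INT replicate 0), from -0.0202 to 0.0484 (PARS2) and from -0.0084 to 0.0303 (MARS2) in P4P6 minus CasVP, both negative without P4P6 replicate 0 and with PARS2 at -0.0059 without CasVP replicate 0 and MARS2 at -0.0055 without CasVP replicate 1, from -0.0819 to 0.136 (FARSA, P4P6 minus sgRNA, negative without P4P6 replicate 0) and from -0.0807 to 0.0127 (TARS2, TOP1 minus sgRNA, positive without TOP1 replicate 0). A pair of alternatives was chosen after seeing the data. With shared rows added, mitochondrial medians were -0.0412 for P4P6 minus CasVP, -0.079 for P4P6 minus sgRNA and 0.0047 for TOP1 minus sgRNA. With the GC and length trend removed, 0 members and 0 list genes passed in P4P6 minus sgRNA, where the cytosolic median was -0.124, the mitochondrial median -0.0414 and FARSA -0.0050. In that fit P4P6 minus CasVP gave a cytosolic median of -0.0611, a mitochondrial median of -0.0249, VARS at -0.0105 and AARS2 at -0.0229, and the mitochondrial medians were 0.00011 for INT minus sgRNA and 0.0033 for TOP1 minus sgRNA. Over 19 alternatives each, the 5 called members failed to pass in 45 of 95 fits, from 6 for EPRS to 11 for DARS. The cause of these changes was not tested. With 2 libraries a group, small differences could be missed.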
